A study of Homo sapiens with 12 samples.

Results

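The 47 genes described here encode proteins of the complement and coagulation systems. They were taken by gene symbol from a list made with earlier results of these data known, and all 47 were found among the 35984 genes of the count table. Of these, 25 belong to complement and 22 to coagulation, its inhibitors and fibrinolysis. A count above 0 was recorded for 46, and 44 passed the filter on low counts and were tested, 23 of complement and 21 of coagulation. RNA was sequenced from HepG2, an established human hepatoma cell line, in 12 libraries, 3 in each of 4 groups. Control cells (CTL) carried control shRNAs. Double knock-down cells (DKD) carried shRNAs that target macroH2A1 together with macroH2A2, which are variants of histone H2A that bear a macro domain. Both lines had pRetroSUPER vectors integrated by retroviral transduction, and all 4 groups spent a night in 0.5% serum before treatment. The treated groups were then kept with 20 ng/mL of TNFα, a cytokine of inflammation, for 24 hours, and the untreated groups received its vehicle, PBS with 0.1% BSA. Nothing in the labels tells whether the 3 libraries of a group were separate cultures. The p-values therefore rest on the spread of these libraries alone, and that spread may be technical. Nor do the labels tell whether a line was a pool or a clone, so an effect of the knock-down and a difference between the lines as such cannot be told apart.

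Complement is a set of plasma proteins that mark microbes and damaged cells for removal. The classical and lectin pathways start with recognition proteins and the proteases C1r, C1s and the MASPs, which cleave C4 and C2, and the alternative pathway uses factor B. All routes meet at C3, whose cleavage leads through C5 to the membrane attack complex, and plasma and membrane regulators hold the cascade back. Coagulation runs from tissue factor and factor VII, or from the contact system, through factor X to prothrombin and fibrin, with antithrombin, the protein C system and TFPI as brakes. Hepatocytes make most of these plasma proteins, and C3 is among those that respond to inflammatory cytokines. HepG2 cells retain part of this secretory programme.

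Library totals ran from 30955080 to 42094144 estimated counts, and a single count came to 0.0238 to 0.0320 CPM (counts normalised for depth, with TMM-scaled library sizes). The members took 0.448% to 0.897% of a library's counts. Both targeted genes were below every control library in each of the 6 knock-down libraries. MACROH2A1 stood at 205 to 279 CPM in control and 32.4 to 63.5 CPM in knock-down libraries, and MACROH2A2 at 41.0 to 60.4 and 3.28 to 6.01 CPM. Of 10 hepatocyte markers all were detected, with a summed level of 18749 to 41261 CPM. The summed level of 6 endothelial markers was 2.08 to 3.47 CPM, of 7 macrophage and leukocyte markers 6.02 to 16.0 CPM, with CD3E at 0 in every library, and of 6 stellate cell and fibroblast markers 23.6 to 47.7 CPM. Libraries numbered 1 stood apart over the whole table, by chi-squared per degree of freedom between the counts of 2 libraries. Replicate 1 against 2 and 3 gave 129 and 141 in untreated and 72.3 and 80.8 in treated knock-down cells. Replicate 2 against 3 gave 12.8 and 18.9. In control cells replicate 1 gave 30.9 to 37.9, and 2 against 3 gave 12.2 and 18.1. For the members too, replicate 1 of both knock-down groups stood apart. In them the median complement member was above the mean of replicates 2 and 3 by 0.37 on the log2 scale without TNFα and 0.37 with it, and the median coagulation member by 0.63 and 0.51, while the median over all tested genes differed by 0.02 and 0.00. In control cells the same median was 0.13 and -0.02 for complement and 0.24 and 0.17 for coagulation. The hepatocyte marker sum was highest in the same libraries, at 41261 CPM against 31936 and 28328 in the other untreated knock-down libraries and 28216 against 23580.0 and 21768 in the treated ones, and its part in this was not tested. Each main count is therefore also given from the knock-down replicates 2 and 3 alone.

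Reference sequences are shown for 2 sets of members named in later results, and no test used these sequences. The first is F7, F10 and PROZ, which lie next to each other on the plus strand of chromosome 13 and encode the vitamin K-dependent factors VII and X and protein Z. The promoter windows below are from RefSeq (GRCh38.p14), plus strand, 5′ to 3′, and cover chr13:113105541-113105787 for F7 (3 bases next to its start left out), chr13:113122549-113122798 for F10 and chr13:113158398-113158647 for PROZ. Capitals mark a match to the HNF4 half-site CAAAGT, searched on both strands, which reads ACTTTG where it lies on the minus strand. HNF4 is a nuclear receptor that drives hepatocyte genes.
F7 promoter: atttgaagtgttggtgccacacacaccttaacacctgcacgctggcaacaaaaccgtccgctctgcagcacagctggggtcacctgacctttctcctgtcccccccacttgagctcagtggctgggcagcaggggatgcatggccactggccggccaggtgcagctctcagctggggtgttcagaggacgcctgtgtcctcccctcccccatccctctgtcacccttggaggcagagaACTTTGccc
F10 promoter: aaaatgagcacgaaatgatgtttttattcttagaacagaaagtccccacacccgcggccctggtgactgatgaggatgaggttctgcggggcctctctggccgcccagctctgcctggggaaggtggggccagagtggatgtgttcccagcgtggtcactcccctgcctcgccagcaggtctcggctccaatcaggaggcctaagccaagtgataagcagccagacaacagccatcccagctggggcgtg
PROZ promoter: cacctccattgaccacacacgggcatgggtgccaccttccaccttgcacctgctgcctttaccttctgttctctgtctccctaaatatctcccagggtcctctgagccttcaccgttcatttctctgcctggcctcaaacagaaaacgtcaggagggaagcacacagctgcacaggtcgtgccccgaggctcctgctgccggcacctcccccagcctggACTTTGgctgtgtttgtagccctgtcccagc
The windows of F7 and PROZ each hold 1 match, starting 12 and 31 bases before the annotated start, and that of F10 holds none. A promoter entry was found for 37 members, with 50 windows. Counted over the full 250 bases before each start, 18.0% of these held this half-site against 10.3% of all 35116 windows. The 9 members with it were C4BPB, C6, C8B, CD59, F7, F9, KLKB1, PROZ and SERPIND1. Of these, F7 and PROZ were called between the lines without the block (results below). The others with it were not, and F9 was not tested. MASP1, MASP2, C2 and PROC, also called between the lines, held no match. The called members C1S, C3, C4B, CLU, SERPINC1 and A2M had no promoter entry, so no motif was searched in them. The HNF1 half-site GTTAAT was in 18.0% of member windows and 6.23% of all, the C/EBP-like motif TTGCNNAA in 22.0% and 9.05%, and the NF-kB consensus in 1 member window, of CFB, and in 9.96% of all. These are matches of letters and not measured binding sites, and windows of alternative starts of 1 gene share sequence.

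The second set is C4A and C4B, the paired genes for complement component C4. Their coding sequences in GENCODE release 29 are 5232 bases each and differ at 13 bases, an identity of 99.8%. The stretch from coding base 3337 to 3396, in which 5 of the differences lie (capitals), reads as follows.
C4A coding window: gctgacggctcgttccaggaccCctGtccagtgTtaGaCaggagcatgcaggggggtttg
C4B coding window: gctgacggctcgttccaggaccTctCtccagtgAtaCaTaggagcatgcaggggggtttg
Reads that cover none of these bases cannot be assigned to either gene, so how counts were divided between C4A and C4B is uncertain, and their sum is given beside them.

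Per length of transcript, A2M and C3 were the most abundant members. In untreated control cells the level of A2M, which encodes the broad protease inhibitor alpha-2-macroglobulin, was 234 ± 43.6 CPM per kb (SD, n = 3) and that of C3 165 ± 30.8. Prothrombin (F2) followed at 119.8 ± 6.39, and no library of A2M or F2 overlapped one of C3. The next members did not separate from each other: CD46 at 89.7 ± 5.70, CFI at 87.0 ± 7.14, TFPI at 80.2 ± 6.02 and C4BPB at 74.0 ± 11.5 CPM per kb had overlapping libraries between neighbours. With TNFα, C3 was first by mean in both lines. It was at 347 ± 17.9 in control and 463 ± 34.0 CPM per kb in knock-down cells, against 170.2 ± 25.4 and 374 ± 80.0 for A2M. Their libraries did not overlap in treated control cells. In treated knock-down cells library 1 of A2M, at 466, lay above libraries 2 and 3 of C3, at 436 and 453 CPM per kb. At the other end, F9 (factor IX) had 0 counts in all 12 libraries, which allows up to 0.0714 to 0.0961 CPM per library (3 counts, counting error only). C9, the pore-forming component, reached at most 0.175 CPM with 28 counts in all libraries together, and SERPING1, the C1 inhibitor, at most 0.0951 CPM with 18 counts. These 3 members were under the filter and were not tested.

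**Figure D1:**
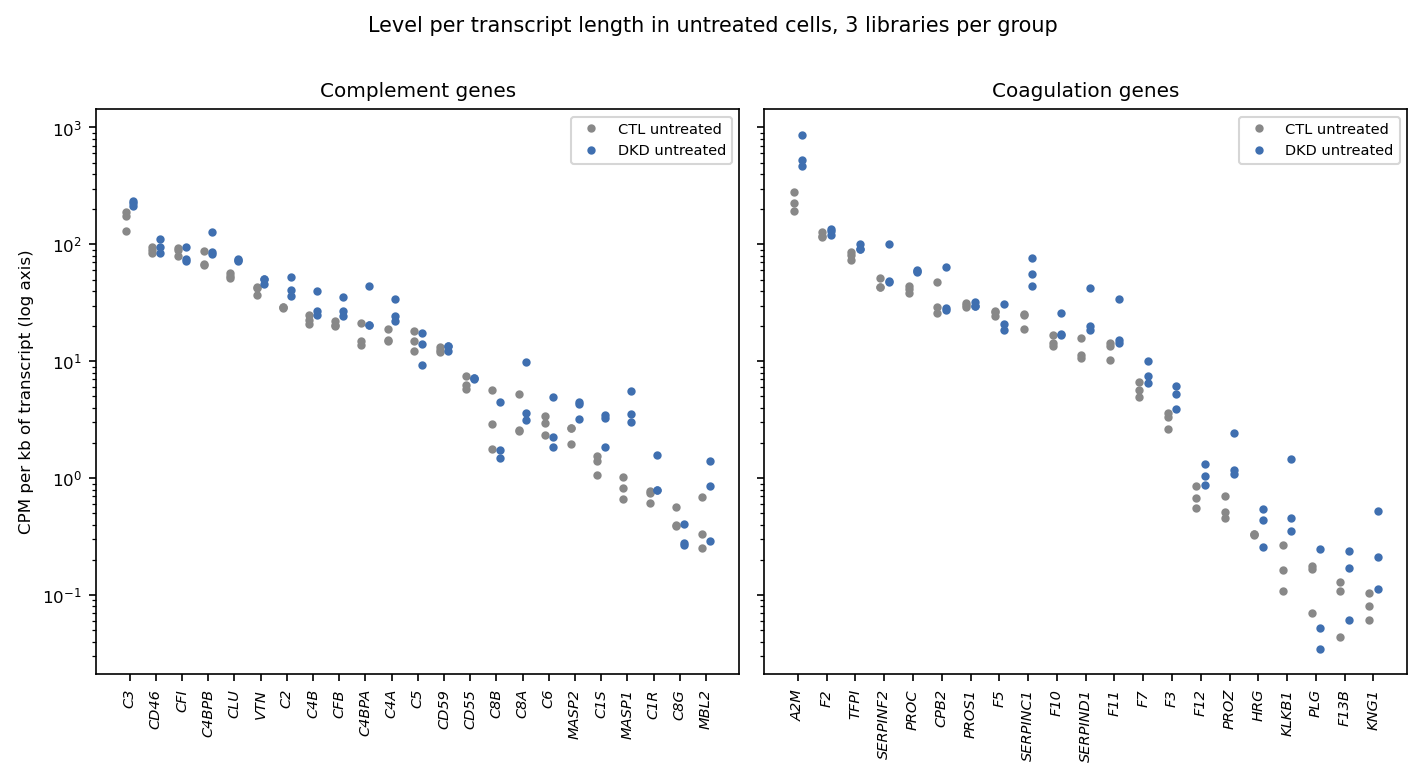
Level of the 44 tested members in untreated cells, as CPM per kb of transcript on a log axis, with 3 points (libraries) for control (grey) and 3 for knock-down cells (blue), ordered by the control mean. A2M and C3 lead, and the lowest members, such as KNG1 and F13B, are under 1 CPM per kb in every library.

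The knock-down comparison asked how levels differed between DKD and CTL cells, without and with TNFα. Every member called in it was higher in knock-down cells, and the calls included initiating proteases of complement (MASP1, C1S and MASP2) and inhibitors of coagulation (SERPINC1, A2M, PROC and PROZ). Without TNFα, 4 of 23 complement members (17.4%) and 3 of 21 coagulation members (14.3%) were called higher and 0 lower, at an adjusted p under 0.05 in edgeR's quasi-likelihood test. Of all 16118 genes, 3.13% were called higher and 1.86% lower. With TNFα, 4 complement members (17.4%) and 5 coagulation members (23.8%) were higher and 0 lower, against 3.94% and 2.3% of all genes. The median log2 fold change was 0.44 and 0.42 over complement and 0.53 and 0.54 over coagulation members, without and with TNFα, and 0.01 and 0.00 over all genes. Fold changes above 0 were found for 38 and 36 of the 44 members, or 86.4% and 81.8%, against 51.6% and 50.2% of all genes.

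Replicate numbers were taken to pair the libraries, because libraries of equal number deviated together in these data, most clearly those numbered 1. Below, without the block refers to the edgeR fit of all 12 libraries, and a call by the block alone was absent from that fit. With the number as a block the counts of members were larger. Without TNFα, 11 complement and 12 coagulation members were then higher and 0 lower, where the block called 9.17% of all genes higher and 7.31% lower. With TNFα, 12 and 12 were higher and 1, C5, lower, against 10.6% and 8.79% of all genes. From knock-down replicates 2 and 3 alone, 6 complement and 4 coagulation members were higher without TNFα, where 5.08% of the 16283 genes tested in that fit were higher and 3.42% lower, and 5 and 6 with it, where these shares were 5.75% and 3.46%. The 1 member then lower was F5 in both cases, at -0.40 (adjusted p = 0.0146) and -0.49 (adjusted p = 0.00502) on the log2 scale. Hepatocyte markers moved alongside: 3 of 10 were higher in knock-down cells in each treatment, among them ALB, by 3.72 and 3.35 (SE 0.25 in both, adjusted p = 2.13e-05 and 2.97e-05), and their part in the result was not tested. In bulk RNA, more cells expressing a gene and more RNA per cell cannot be told apart.

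**Figure D2:**
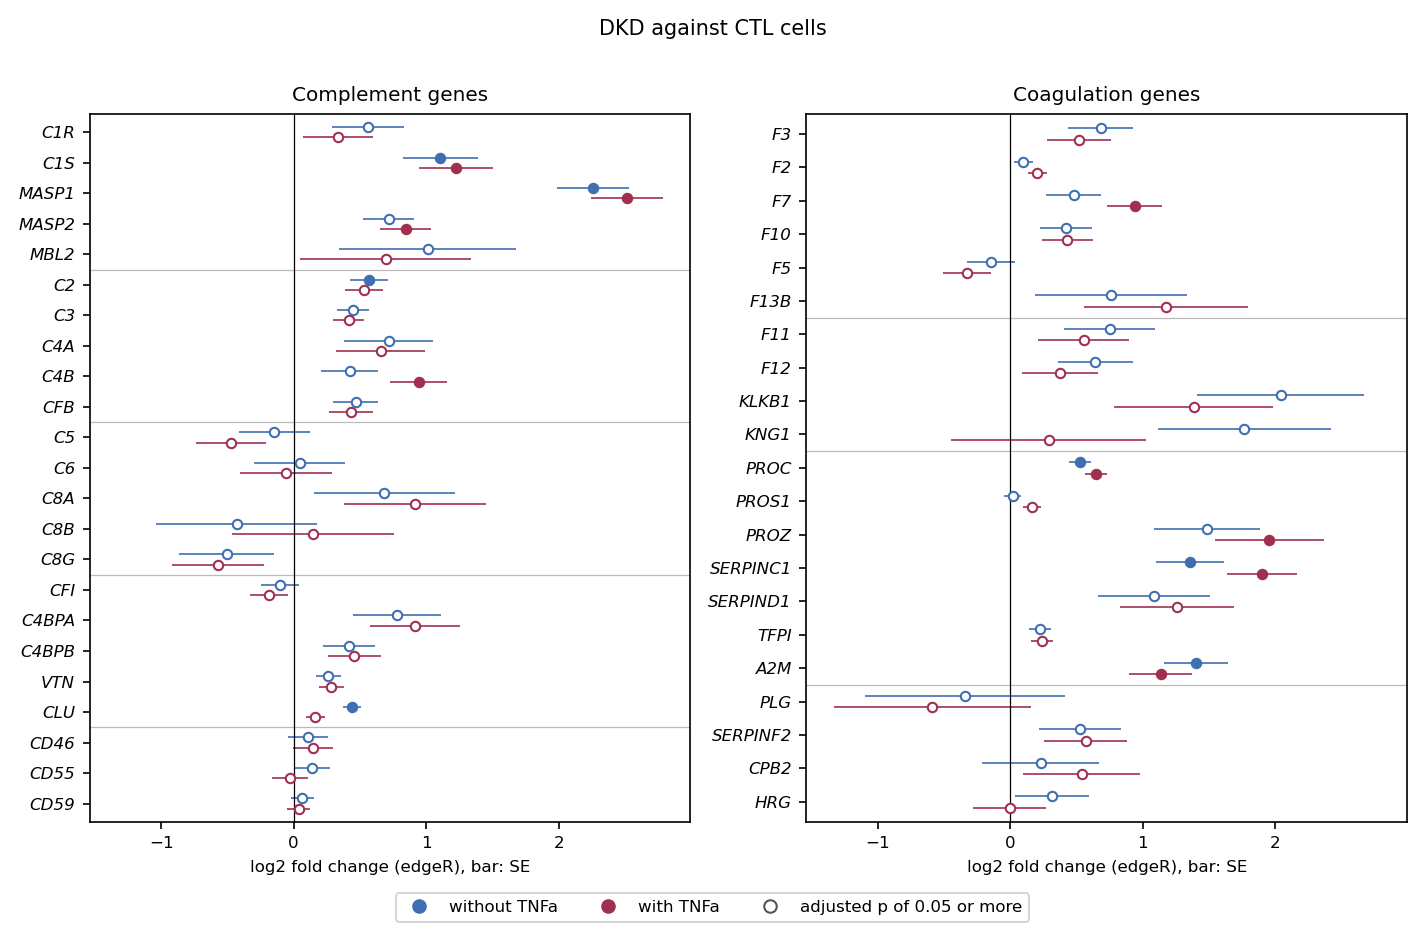
Log2 fold change (x axis, bar: SE) between DKD and CTL cells for the 23 complement and 21 coagulation members tested, without TNFα (blue) and with it (red), grouped by role between grey lines. Filled points passed the test, and all of them lie above 0, from 0.44 for CLU to 2.51 for MASP1.

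The TNFα comparison asked what the cytokine changed within each line. C3, CD59 and TFPI were higher with TNFα in both lines, C1S was called higher in knock-down cells, and SERPINC1 lower in control cells. In control cells 2 of 23 complement members (8.70%) were higher and 0 lower, and of 21 coagulation members 1 was higher and 1 lower (4.76% each). Of all genes, 1.9% were higher and 0.726% lower. In knock-down cells 3 of 23 complement members and 1 of 21 coagulation members (4.76%) were higher and 0 lower, against 1.54% and 0.254% of all genes. The median log2 fold change was -0.01 and -0.08 over complement and -0.24 and -0.09 over coagulation members, in control and knock-down cells, and 0.00 and -0.01 over all genes. With the block, further members were lower with TNFα. In control cells 4 complement members were then higher and 3 lower, and 1 coagulation member higher and 6 lower, against 7.94% and 4.7% of all genes. In knock-down cells these were 3 and 1, and 1 and 4, against 5.55% and 2.13%. From knock-down replicates 2 and 3 alone, with all control libraries, 4 complement members were higher and 3 lower and 2 coagulation members higher and 4 lower in control cells, against 5.15% and 3.45% of all genes tested. In knock-down cells these were 3 and 0, and 1 and 2, against 2.22% and 0.639%. Of the 10 hepatocyte markers 3 were lower with TNFα in control cells and 4 in knock-down cells, with 0 higher, and their part in these results was not tested. The TNFα and knock-down comparisons share libraries, so their values are set side by side below and are not independent of each other.

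**Figure D3:**
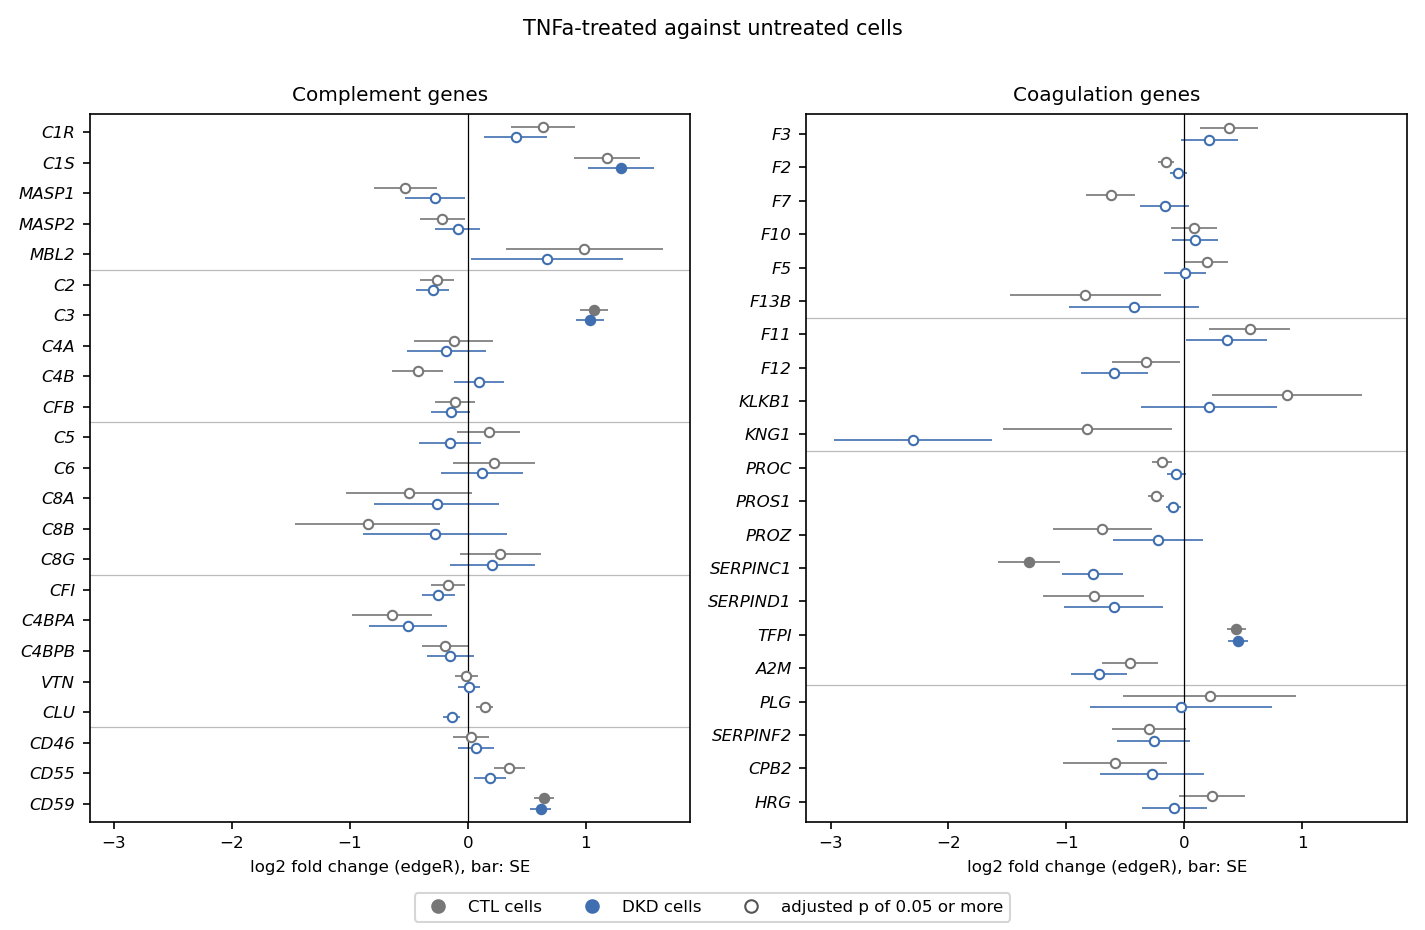
Log2 fold change (x axis, bar: SE) between TNFα-treated and untreated cells for the same 44 members, in CTL (grey) and DKD cells (blue). Filled points passed the test: C3, CD59 and TFPI in both lines, C1S in DKD cells, all above 0, and SERPINC1 in CTL cells at -1.32.

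Among the proteins that start the classical and lectin pathways, the serine proteases MASP1, C1S and MASP2 were higher in knock-down cells. MASP1 (chr3:187217285-187292022, minus strand), a protease of the lectin pathway, stood at 5.45, 4.39 and 3.48 CPM in untreated control libraries 1, 2 and 3, and library values below keep this order. In untreated knock-down libraries it was 29.3, 18.5 and 15.9, in TNFα-treated control libraries 3.54, 2.91 and 2.78 and in treated knock-down libraries 20.7, 19.0 and 13.1 CPM. All knock-down libraries lay above all control libraries in both treatments, and the highest was untreated replicate 1. The difference was the largest among members in both treatments (without TNFα 2.26 on the log2 scale, SE 0.27, adjusted p = 8.77e-04, and 2.51, SE 0.27, adjusted p = 3.81e-04 with it). It kept its call without each library in turn, and from knock-down replicates 2 and 3 it was 1.96 (adjusted p = 5.45e-04) and 2.39 (adjusted p = 1.92e-04). With TNFα in control cells MASP1 was lower by the block, at -0.51 (adjusted p = 0.0326), and was not called without it.

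C1S (chr12:6988259-7071032, plus strand) encodes the protease of the C1 complex that cleaves C4 and C2. Its level was 3.26, 4.33 and 4.73 CPM in untreated and 7.12, 10.7 and 10.1 in treated control libraries. In knock-down libraries it was 5.74, 10.1 and 10.7 CPM untreated and 15.4, 23.5 and 26.4 treated. The 4 groups thus ran from 4.10 ± 0.759 CPM in untreated control to 21.8 ± 5.70 in treated knock-down cells (SD, n = 3), and replicate 1 was the lowest of each group. C1S was higher in knock-down cells without TNFα (log2 fold change 1.11 with an SE of 0.28, adjusted p = 0.0496) and with it (log2 fold change 1.23 with an SE of 0.28, adjusted p = 0.0241), and rose with TNFα in knock-down cells, by 1.30 (SE 0.28, adjusted p = 0.0427). In control cells its change with TNFα, 1.18 (adjusted p = 0.0558), was not called without the block, although no treated library overlapped an untreated one. It passed with the block (adjusted p = 1.09e-04). These calls lay near the threshold. For TNFα in knock-down cells the call was lost without any 1 library other than DKD TNFα replicate 1 (adjusted p up to 0.211), and for the knock-down without TNFα without any other than the 2 DKD replicate 1 libraries (up to 0.173). For the knock-down with TNFα it was lost without any CTL TNFα library or DKD TNFα replicate 2 or 3 (up to 0.103). With only the 2 groups compared, the first 2 of these calls were also lost (adjusted p = 0.271 and 0.137).

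MASP2 (chr1:11026523-11047233, minus strand), the lectin pathway protease that cleaves C4 and C2, was measured at 4.79, 6.54 and 6.53 CPM in untreated and 4.46, 5.01 and 5.90 in treated control libraries. Knock-down libraries held 7.84, 10.6 and 10.9 CPM untreated and 7.74, 9.44 and 10.5 treated, all above the control libraries of the same treatment. It was higher in knock-down cells with TNFα (log2 fold change 0.85 with an SE of 0.19, adjusted p = 0.0244), a call lost without CTL TNFα replicate 1 or 2 or DKD TNFα replicate 2 or 3 (adjusted p up to 0.107). Without TNFα the difference of 0.72 (adjusted p = 0.0605) passed with the block (adjusted p = 6.78e-04). The other 2 members of this group, C1R and the lectin MBL2, had fold changes of 0.33 to 1.01 in the knock-down and did not pass. MBL2 rose with TNFα in control cells by the block, at 1.04 (adjusted p = 0.0411), and was not called without it. From knock-down replicates 2 and 3 alone, with all control libraries, 2 of the 5 members of this group were higher with TNFα in control cells. In that fit 5.15% of all genes were. DESeq2 called 1 of the 5 there, against 1005 of the 16118 genes tested in edgeR. Exons of MASP1 and MASP2 overlap annotated genes on the opposite strand, and those of C1S overlap EMG1 on the same strand, so part of their counts may come from these neighbours.

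Of C3 and the components of its convertases, C3 was the member called with TNFα in both lines, with and without the block. From knock-down replicates 2 and 3 alone, with all control libraries, 2 of these 5 members were lower with TNFα in control cells. In that fit 3.45% of all genes were. C3 (chr19:6677704-6730562, minus strand), the central protein of complement, stood at 689, 1005 and 912 CPM in untreated control and 1736, 1824 and 1924 CPM in treated control libraries. In knock-down libraries it was 1188, 1246 and 1124 CPM untreated and 2637, 2292 and 2384 CPM treated. Treated and untreated libraries did not overlap in either line. C3 rose by 1.07 on the log2 scale in control cells (SE 0.12, adjusted p = 9.09e-04) and by 1.04 in knock-down cells (SE 0.12, adjusted p = 0.00108), and both calls held without each library in turn. Knock-down libraries also lay above control libraries in each treatment, with differences of 0.45 (adjusted p = 0.0571) and 0.42 (adjusted p = 0.0661). These passed with the block, with adjusted p = 0.0219 and 0.0269. Without C3, the summed complement level was 1462 ± 70.0 CPM in untreated and 1456 ± 87.3 CPM in treated control cells (SD, n = 3).

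C2 (chr6:31897785-31945672, plus strand), the protease of the classical C3 convertase, was at 81.0, 83.1 and 83.4 CPM in untreated and 70.8, 67.1 and 69.0 in treated control libraries. In knock-down libraries it was 149, 116 and 102 CPM untreated and 120.0, 90.9 and 87.9 treated, above every control library of the same treatment and highest in replicate 1. It was higher in untreated knock-down cells (log2 fold change 0.57 with an SE of 0.14, adjusted p = 0.0465). That call was lost without any 1 library other than DKD untreated replicate 3 or DKD TNFα replicate 1 (adjusted p up to 0.138) and with only the 2 groups compared (0.130), but was 0.41 (adjusted p = 0.00666) from replicates 2 and 3. With TNFα the difference of 0.53 (adjusted p = 0.0540) passed with the block (adjusted p = 0.00746). CFB, factor B of the alternative pathway, has exons that overlap those of C2 on the same strand. Its differences of 0.47 and 0.43 passed with the block (adjusted p = 0.0337 and 0.0400) and were not called without it.

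C4B (chr6:32014795-32035418, plus strand) was assigned 136, 113 and 123 CPM in untreated and 90.8, 91.7 and 94.9 in treated control libraries. Knock-down libraries were assigned 218, 145 and 136 CPM untreated and 243, 144 and 147 treated, with replicate 1 well above the other 2 in both. C4B was called higher in knock-down cells with TNFα (log2 fold change 0.94 with an SE of 0.22, adjusted p = 0.0263), a call lost without any CTL TNFα library or DKD TNFα replicate 1 (adjusted p up to 0.0965). C4A (chr6:31982024-32002681) differed by 0.72 and 0.66 without and with TNFα. It passed with the block (adjusted p = 0.0157 and 0.0130) and was not called without it. With 13 differences over 5232 coding bases, the genes are hard to separate. In treated control library 1 C4A took 129.9 CPM against 49.3 and 67.6 in the others, while C4B was level across them. Summed, an alternative chosen after the data were seen, C4A and C4B gave 175 ± 41.2 CPM in treated control and 308 ± 101 CPM in treated knock-down cells (SD, n = 3). The log2 fold change of the sum was 0.82 (SE 0.25, adjusted p = 0.0829, not called, and 3.74e-04 with the block). Without TNFα it was 0.55 (adjusted p = 0.276, and 0.00495 with the block).

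The terminal components, which build the membrane attack complex, gave no call without the block in any comparison. Of the 5 tested, C5, C6, C8A, C8B and C8G, fold changes in the knock-down ran from -0.57 to 0.92, with 2 of 5 above 0 in each treatment. With the block, C8A was higher in knock-down cells, at 0.59 (adjusted p = 0.0306) without and 0.81 (adjusted p = 0.00624) with TNFα, C5 was lower in treated knock-down than in treated control cells, at -0.53 (adjusted p = 0.0233), and C8B was lower with TNFα in control cells, at -0.79 (adjusted p = 0.00787). From knock-down replicates 2 and 3 alone, C8A differed by -0.02 (adjusted p = 0.980) and 0.27 (adjusted p = 0.716). Its level in the untreated knock-down was 23.2, 7.44 and 8.56 CPM, with replicate 1 high and the other 2 within the range of untreated control libraries, 12.3, 6.06 and 6.02 CPM.

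Of the plasma regulators, CLU (clusterin, which blocks assembly of the terminal complex, chr8:27596917-27615031, minus strand) was called. It stood at 176, 164 and 158 CPM in untreated control and 227, 221 and 229.6 CPM in untreated knock-down libraries. With TNFα it was 182, 186 and 183 CPM in control and 199.5, 194 and 223 in knock-down libraries. The groups did not overlap in either treatment. The untreated difference passed (log2 fold change 0.44 with an SE of 0.07, adjusted p = 0.00417) and did so without each library in turn, whereas that with TNFα did not (0.16, adjusted p = 0.247). Replicate 1 of the knock-down did not stand apart for CLU. C4BPA and C4BPB, the chains of C4b-binding protein, passed with the block alone. They differed by 0.78 and 0.42 without TNFα and 0.92 and 0.46 with it (adjusted p with the block = 0.00307, 0.0145, 8.39e-04 and 0.00790). From knock-down replicates 2 and 3 neither was called. C4BPA fell with TNFα by the block in control cells, at -0.63 (adjusted p = 0.00863), and in knock-down cells, at -0.47 (adjusted p = 0.0422). VTN (vitronectin) was higher in treated knock-down cells by the block, at 0.29 (adjusted p = 0.0436). CFI, the protease that inactivates C3b and C4b, was not called in any comparison, with or without the block.

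Among the membrane regulators, CD59 (chr11:33703010-33736491, minus strand), which protects cells from the membrane attack complex, rose with TNFα. It was 94.8, 91.5 and 102 CPM in untreated control, 138, 154 and 158 in treated control, 93.6, 104 and 104 in untreated knock-down and 139.6, 158 and 165 CPM in treated knock-down libraries. Every treated library lay above every untreated one, and the lines overlapped within each treatment. The rise was 0.65 in control cells (SE 0.09, adjusted p = 0.00312) and 0.62 in knock-down cells (SE 0.09, adjusted p = 0.00462), and it was called without each library in turn. The call in knock-down cells was lost when only the 2 groups compared were fitted (adjusted p = 0.123). CD46 and CD55, which disable C3 convertases on host cells, had log2 fold changes of 0.03 to 0.35 with TNFα and were not called. CD59 shares exon sequence with another annotated gene on the same strand.

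**Figure D4:**
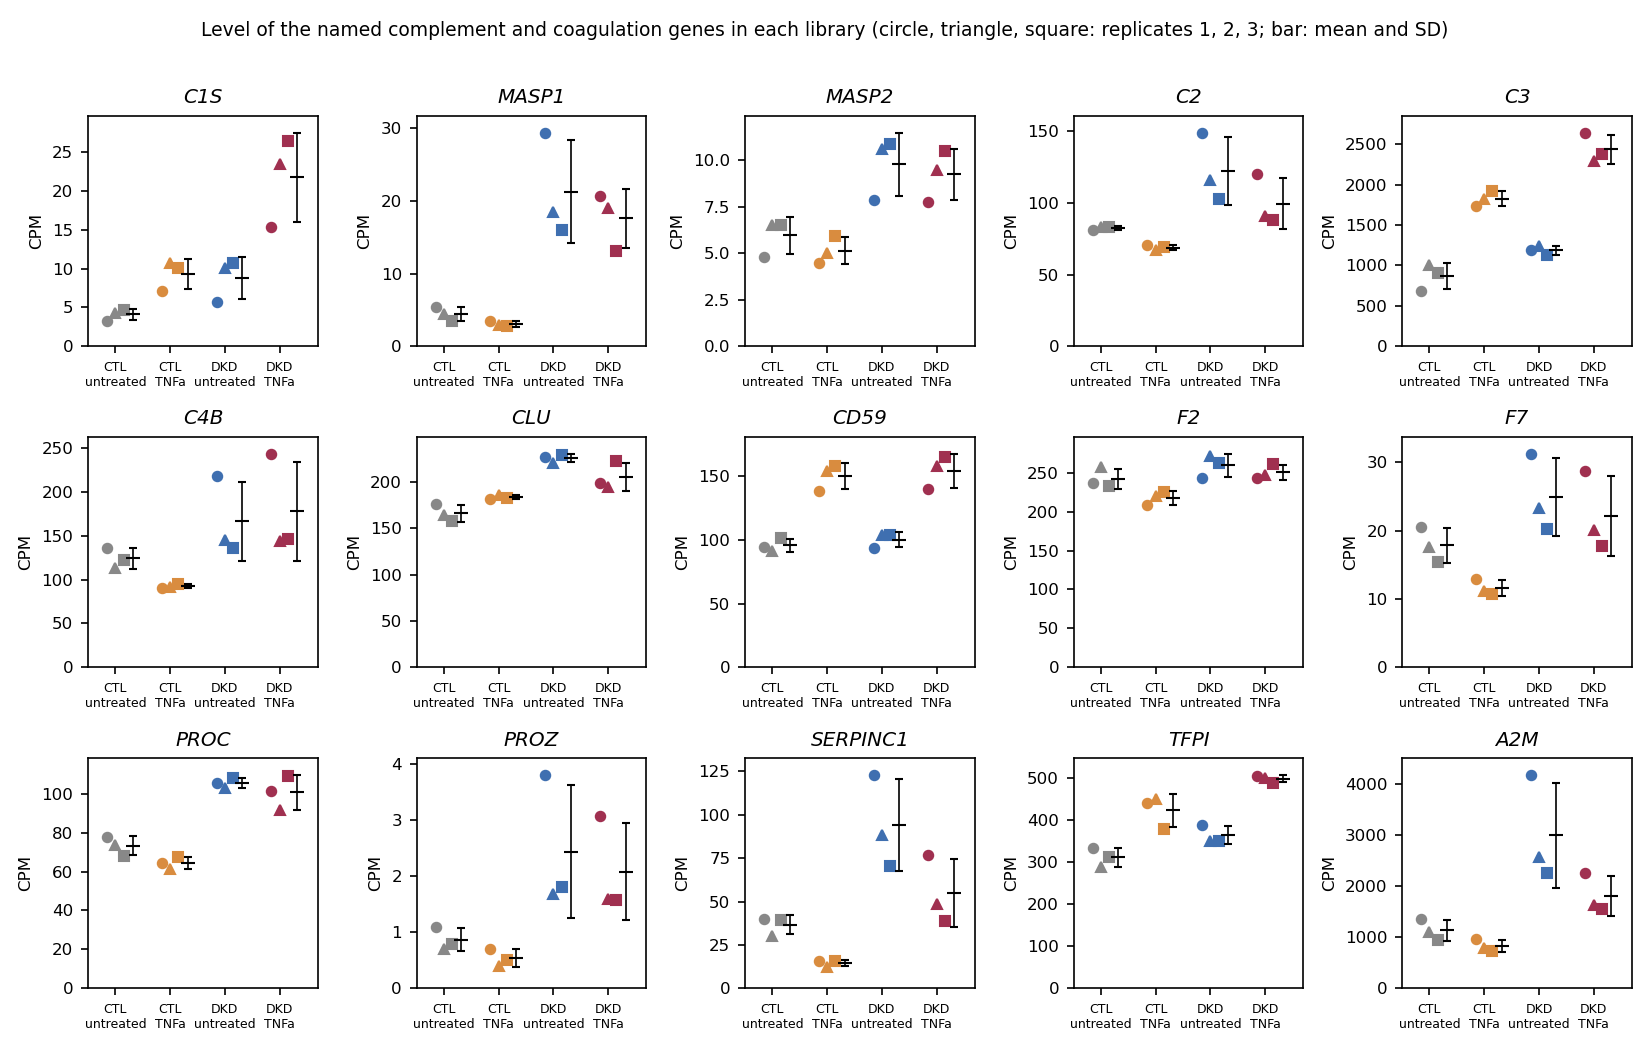
CPM in each of the 12 libraries (linear axes from 0) for the 14 members called in at least 1 comparison and F2, with circle, triangle and square for replicates 1, 2 and 3 and the bar for mean and SD. C3 and CD59 step up with TNFα in both lines, MASP1, PROC and SERPINC1 are higher in every DKD library than in CTL libraries of the same treatment, and for A2M and PROZ replicate 1 is the highest DKD point.

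In the coagulation cascade itself, F7 was the only 1 of 6 tested factors called without the block. F7 (chr13:113105788-113120681, plus strand), the protease that tissue factor activates, was at 20.5, 17.7 and 15.4 CPM in untreated and 12.9, 11.2 and 10.7 in treated control libraries. In knock-down libraries it was 31.2, 23.3 and 20.2 CPM untreated and 28.8, 20.0 and 17.7 treated, and with TNFα the lines did not overlap. It was higher in treated knock-down cells (log2 fold change 0.94 with an SE of 0.21, adjusted p = 0.0228), a call lost without CTL TNFα replicate 2 or 3 or DKD TNFα replicate 1 (adjusted p up to 0.0979) but made from knock-down replicates 2 and 3, at 0.71 (adjusted p = 0.0117). Without TNFα the difference was 0.48 (adjusted p = 0.267, and 0.00624 with the block). In control cells F7 was lower with TNFα by the block, at -0.62 (adjusted p = 0.00221). Its neighbour F10, the factor at which the pathways meet, differed by 0.42 and 0.43 and passed with the block alone (adjusted p = 0.0375 and 0.0307). The third gene of this stretch, PROZ (promoter windows above), is given below with the inhibitors.

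F2 (prothrombin, chr11:46719180-46739506, plus strand), the precursor of thrombin, was not called without the block. Its level was 237, 257 and 233 CPM in untreated control, 208, 219.7 and 225 in treated control, 244, 272 and 263 in untreated knock-down and 243, 247 and 262 CPM in treated knock-down libraries. With TNFα the knock-down libraries lay above the control libraries, by 0.20 on the log2 scale (adjusted p = 0.127, and 0.0280 with the block). F3, tissue factor, the trigger of coagulation, differed by 0.68 and 0.52 in the knock-down and passed with the block (adjusted p = 0.00299 and 0.0121) and from replicates 2 and 3, at 0.84 (adjusted p = 0.0145) and 0.74 (adjusted p = 0.0250). F5, the cofactor of factor X, went the other way, at -0.15 and -0.33, and was called lower from knock-down replicates 2 and 3 alone, as given above. Its untreated knock-down values of 219, 145 and 131 CPM show replicate 1 above, and replicates 2 and 3 below, all untreated control libraries (191, 186 and 172). F13B, a subunit of the fibrin-stabilising factor, reached at most 0.523 CPM and was not called.

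The contact system, which starts coagulation on surfaces, had 4 tested members, F11, F12, KLKB1 and KNG1. Without the block, edgeR called none of them over all 12 libraries. DESeq2 called 1 in the untreated knock-down and 1 for TNFα in knock-down cells, against 1409 and 631 of the 16118 genes tested in edgeR. From knock-down replicates 2 and 3 alone, 1 was higher with TNFα in control cells, against 5.15% of all genes. In that fit 1 was lower with TNFα in knock-down cells, against 0.639%. All 4 had fold changes above 0 in both treatments of the knock-down comparison, from 0.29 to 2.04. Without TNFα, 3 of 4 were higher by the block: F11 at 0.66 (adjusted p = 0.0459), prekallikrein (KLKB1) at 1.93 (adjusted p = 0.00304) and kininogen (KNG1) at 1.62 (adjusted p = 0.0274). With TNFα, KLKB1 passed by the block, at 1.25 (adjusted p = 0.0162). KNG1 and KLKB1 were scarce, with highest values of 2.21 and 3.60 CPM, both in knock-down replicate 1, and neither was called between the lines from replicates 2 and 3. KNG1 fell with TNFα in knock-down cells by the block, at -2.32 (adjusted p = 0.0101), from 2.21, 0.880 and 0.477 to 0.499, 0.0721 and 0.146 CPM. Exons of F11 overlap an antisense gene.

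Of the 7 anticoagulants and inhibitors tested, 3 were higher in knock-down cells without TNFα and 4 with it, where 3.13% and 3.94% of all genes were. With the block 6 were higher in each, against 9.17% and 10.6% of all genes. DESeq2 called 4 and 6 of the 7, against 1409 and 1722 of the 16118 genes tested in edgeR. SERPINC1 (antithrombin, which inhibits thrombin and factor Xa, chr1:173903804-173917378, minus strand) stood at 40.2, 30.3 and 39.6 CPM in untreated and 15.9, 12.6 and 15.7 in treated control libraries. In knock-down libraries it was 123, 88.5 and 70.7 CPM untreated and 76.7, 48.8 and 39.0 treated. Treated and untreated control libraries did not overlap, nor did the lines within a treatment. SERPINC1 was higher in knock-down cells without TNFα (log2 fold change 1.36 with an SE of 0.26, adjusted p = 0.0115) and with it (log2 fold change 1.90 with an SE of 0.27, adjusted p = 0.00167). The first call was lost without CTL untreated replicate 2 (adjusted p = 0.0641) and the second in no case. It fell with TNFα in control cells (log2 fold change -1.32 with an SE of 0.26, adjusted p = 0.0235), a call lost without CTL untreated replicate 1 or 3 or any CTL TNFα library (adjusted p up to 0.116). In knock-down cells the change with TNFα was -0.78 (adjusted p = 0.239) and passed with the block, at -0.79 (adjusted p = 0.0207). Treated knock-down cells, at 54.8 ± 19.5 CPM (SD, n = 3), thus held a mean above that of untreated control cells, 36.7 ± 5.55 CPM, with library 3 of the former below libraries 1 and 3 of the latter.

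A2M (chr12:9067664-9116229, minus strand) was at 1362, 1099 and 944 CPM in untreated and 963, 780.4 and 729 CPM in treated control libraries. Knock-down libraries held 4171, 2559.7 and 2259 CPM untreated and 2258, 1621 and 1556 CPM treated, all above the control libraries, with replicate 1 the highest. It was higher in the knock-down without TNFα (log2 fold change 1.40 with an SE of 0.24, adjusted p = 0.00601) and with it (log2 fold change 1.14 with an SE of 0.24, adjusted p = 0.0157). The second call was lost without CTL TNFα replicate 2 or 3 or DKD TNFα replicate 1 (adjusted p up to 0.0769), and from replicates 2 and 3 the values were 1.09 (adjusted p = 0.00190) and 0.95 (adjusted p = 0.00360). With TNFα, A2M fell by the block in both lines, at -0.45 (adjusted p = 0.00689) in control and -0.70 (adjusted p = 8.24e-04) in knock-down cells. A2M made up most of the change in the summed coagulation level, which was 2367 ± 284 CPM in untreated control and 4507 ± 1295 in untreated knock-down cells. Without A2M the sums were 1232 ± 78.2 and 1511 ± 267 CPM (SD, n = 3). Its antisense gene A2M-AS1 overlaps its exons, and reads from these cannot be told apart without a stated strand setting.

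PROC (chr2:127418427-127429246, plus strand), which encodes the protease protein C that, once activated, inactivates factor V, was called in both treatments. It was 77.8, 73.9 and 68.0 CPM in untreated and 64.3, 61.4 and 67.2 in treated control libraries, and 106, 103 and 108 and 101, 91.4 and 109 CPM in knock-down libraries. The lines did not overlap, and knock-down replicate 1 lay within the other 2. PROC was higher in knock-down cells without TNFα (log2 fold change 0.53 with an SE of 0.08, adjusted p = 0.00419) and with it (log2 fold change 0.65 with an SE of 0.08, adjusted p = 0.00123), without each library in turn as well. Protein S (PROS1), its cofactor, differed by 0.02 and 0.16 in the knock-down and was not called there in edgeR, with or without the block. With TNFα in control cells PROS1 was lower by the block, at -0.24 (adjusted p = 0.0184).

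PROZ (chr13:113158654-113172383, plus strand), the cofactor of the factor Xa inhibitor ZPI, was scarce. It was 1.09, 0.705 and 0.792 CPM in untreated and 0.707, 0.391 and 0.504 in treated control libraries, and 3.80, 1.69 and 1.81 and 3.07, 1.59 and 1.58 CPM in knock-down libraries. No knock-down library overlapped a control library of the same treatment and replicate 1 was the highest of each knock-down group. PROZ was higher in knock-down cells with TNFα (log2 fold change 1.95 with an SE of 0.41, adjusted p = 0.0164), a call lost without CTL TNFα replicate 2 or 3 or DKD TNFα replicate 1 (adjusted p up to 0.0803). Without TNFα it differed by 1.48 (adjusted p = 0.0620, and 7.82e-04 with the block). SERPIND1, heparin cofactor II, an inhibitor of thrombin, differed by 1.09 and 1.26 and passed with the block (adjusted p = 0.00159 and 6.18e-04), but not from replicates 2 and 3, at 0.61 (adjusted p = 0.141) and 0.65 (adjusted p = 0.114). It was lower with TNFα by the block in both lines, at -0.80 (adjusted p = 0.00862) and -0.64 (adjusted p = 0.0297).

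TFPI (chr2:187464230-187565760, minus strand), the inhibitor of the tissue factor pathway, was the inhibitor that rose with TNFα. It was 334, 288 and 313 CPM in untreated and 442, 449.6 and 378 in treated control libraries, and 389, 351 and 352 and 507, 501 and 489 CPM in knock-down libraries. Treated libraries lay above untreated ones in each line. The rise was 0.44 in control (SE 0.08, adjusted p = 0.0193) and 0.46 in knock-down cells (SE 0.08, adjusted p = 0.0205). The first call was lost without CTL untreated replicate 2 or 3 or CTL TNFα replicate 1 or 2 (adjusted p up to 0.114), and the second without CTL untreated replicate 3 or replicate 2 or 3 of either knock-down group (up to 0.113), and also when only the 2 groups compared were fitted (adjusted p = 0.123). Between the lines TFPI differed by 0.22 and 0.24. In edgeR it passed with the block (adjusted p = 0.0499 and 0.0332) and was not called without it. Exons of TFPI, PROZ and F10 overlap genes annotated on the opposite strand.

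The members of fibrinolysis, which dissolves clots, were not called in any comparison without the block. PLG (plasminogen), SERPINF2 (its product inhibits plasmin), CPB2 (which protects fibrin from plasmin) and HRG had log2 fold changes from -0.59 to 0.57 in the knock-down and from -0.59 to 0.23 with TNFα. By the block CPB2 was higher in treated knock-down cells, at 0.47 (adjusted p = 0.0192), and lower with TNFα in control cells, at -0.59 (adjusted p = 0.00980). From knock-down replicates 2 and 3 alone CPB2 differed between treated lines by 0.00 and was not called. Its treated knock-down values of 92.7, 41.5 and 36.5 CPM again had replicate 1 far above the others. SERPINF2 in untreated knock-down libraries, at 232, 112 and 109 CPM, showed the same form.

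Whether the TNFα response itself differed between the lines was tested as an interaction. No member was called, and no gene of the 16118 (0%) in edgeR, where 184 genes had an unadjusted p under 0.05, 1 of them a member. That member was CLU, with a difference in response of -0.28 (SE 0.10, unadjusted p = 0.0180), and it was not called after adjustment. With the block 0 genes were called and 556 had an unadjusted p under 0.05, 3 of them members. DESeq2 called 5 genes, 0 of them members, with 211 under an unadjusted p of 0.05. For C3 the difference in response was -0.03 (SE 0.17), for CD59 -0.03 (SE 0.12) and for TFPI 0.01 (SE 0.12). For SERPINC1 it was 0.54 (SE 0.36), so calls made in 1 line alone are not shown to differ from the other line.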

How the data were processed

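RNA-seq of 12 HepG2 libraries was used. The authors deposited estimated counts per gene, held as whole numbers, in 1 table. The submitters' processing notes name Salmon 0.14.0, CASAVA 1.7, DESeq2 and the build GRCh38 (hg38). How transcripts were summed to genes, with which annotation and strand setting, is not given in the sources used here. The normalised table deposited beside it was left out. No per-sample column was unmapped (0). Groups and replicate numbers came from the sample titles.

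Genes were filtered with edgeR's filterByExpr (minimum count 10, minimum total 15), scaled by TMM and fitted over all 4 groups with the quasi-likelihood test of edgeR 4.0.16 in R 4.3.3 (8 residual degrees of freedom), with Benjamini-Hochberg adjustment over 16118 genes and a threshold of 0.05. There were 5 comparisons. Every adjusted p is from this test unless DESeq2 is named. Same-numbered libraries deviated together (18 pairs, r from 0.193 to 0.695, against -0.544 to 0.311 over 36 differently numbered pairs), so the numbers were taken to pair them. Pairs numbered 1 gave 0.409 to 0.695, and pairs numbered 2 or 3 gave 0.193 to 0.472. Pairs of 2 with 3 gave 0.0388 to 0.311, so the pairing of replicates 2 and 3 is less certain. Values with the replicate number as a block are printed where a call changed. Alternatives were DESeq2 1.42.0, its size factors, no filter, only the groups compared, and leaving out libraries. The sum of C4A and C4B was added after the data were seen.

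Members, roles and lists were chosen with earlier results of these data known. By the rule for named genes, values in every library are given for each member called in at least 1 of the 5 comparisons, plus C3 and F2, and members not called are given by role. Members named because the block or setting aside knock-down replicate 1 changed their call were chosen after their values were seen. Of the other complement and coagulation genes, those called were named, at most 3 per direction and comparison. Gene positions are from GENCODE release 29 (GRCh38), and promoters from RefSeq (GRCh38.p14, 37 of 47 members matched). Levels between genes were compared per kb of transcript.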

Additional observations from a re-analysis of the deposited data

How the results depend on the processing

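Among the members called without the block, and F2, no fold change reversed direction where it was called. Members called by an alternative alone were not part of this check. With the replicate block, complement members called went from 2 to 7 for TNFα in control cells, from 4 to 11 for the knock-down without TNFα and from 4 to 13 with it. Coagulation members called went from 2 to 7 and from 1 to 5 for TNFα in control and knock-down cells, and from 3 to 12 and 5 to 12 for the knock-down without and with TNFα. From knock-down replicates 2 and 3 alone the counts were 7 complement and 6 coagulation members for TNFα in control cells, 3 coagulation members for TNFα in knock-down cells, and 5 for the knock-down without TNFα. When only the 2 groups compared were fitted, complement counts were 4 and 1 for TNFα in control and knock-down cells and 2 for the knock-down without TNFα, and the coagulation count for TNFα in knock-down cells was 0. DESeq2 called 2 coagulation members for TNFα in knock-down cells and 5 for the knock-down without TNFα. Over all genes tested in edgeR it called 631 and 1409. There edgeR called 248 higher and 41 lower, and 504 higher and 299 lower. DESeq2 size factors in edgeR, and no filter on low counts, left each count within 1.5 times, and each lost the C1S call in the knock-down without TNFα. Without each library in turn, complement counts ran from 2 to 3 for TNFα in either line, from 2 to 4 for the knock-down without TNFα and from 1 to 6 with it. Coagulation counts ran from 0 to 3 for TNFα in either line, from 2 to 4 and from 2 to 5 for the knock-down. Coagulation counts for TNFα fell to 0 or 1 in control cells without any 1 CTL library, and to 0 in knock-down cells without CTL untreated replicate 3 or replicate 2 or 3 of either knock-down group. Without DKD TNFα replicate 1 the latter was 3. Complement counts for the knock-down fell to 2 without TNFα when CTL untreated replicate 1 or 3, DKD untreated replicate 2, any CTL TNFα library, or DKD TNFα replicate 2 or 3 was left out. With TNFα they fell to 1 without CTL TNFα replicate 1 or 2 and to 2 without CTL TNFα replicate 3 or DKD TNFα replicate 2 or 3, and the coagulation count fell to 2 without CTL TNFα replicate 2 or 3 or DKD TNFα replicate 1. Interaction counts were 0 for members throughout. Over the members called without the block and F2, by comparison and setting, 1223 values kept their side of the threshold, 76 calls were lost and 41 gained. Members under about 1 CPM rest on few counts, and their spread limits what could be called.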

Other observations

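Genes of the 2 systems outside the 47 included the fibrinogen chains among those called. Of 25 further coagulation genes 20 were tested. In knock-down cells 3 (15%) were higher and 1 (5%) lower without TNFα, against 3.13% and 1.86% of all genes. With TNFα 3 (15%) were higher and 2 (10%) lower, against 3.94% and 2.3%. FGA, FGB and FGG, the chains of fibrinogen, were the 3 that were higher, by 2.81 (SE 0.44, adjusted p = 0.00343), 3.10 (SE 0.23, adjusted p = 3.84e-05) and 2.42 (SE 0.24, adjusted p = 2.43e-04) on the log2 scale without TNFα. With TNFα these differences were 2.22 (SE 0.43, adjusted p = 0.0104), 1.97 (SE 0.22, adjusted p = 5.01e-04) and 2.40 (SE 0.24, adjusted p = 2.17e-04). PLAU, the urokinase plasminogen activator, was lower in knock-down cells, at -2.40 (SE 0.40, adjusted p = 0.00561) and -1.95 (SE 0.38, adjusted p = 0.0107), and GGCX, the carboxylase that modifies vitamin K-dependent factors, was lower in treated knock-down than in treated control cells, at -0.40 (SE 0.08, adjusted p = 0.0164). The adjusted p-values are from edgeR's quasi-likelihood test. From knock-down replicates 2 and 3 alone, 3 of these genes were higher and 2 lower between the lines in each treatment. The shares of all genes were then 5.08% and 3.42% without TNFα, and 5.75% and 3.46% with it.

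With TNFα, 2 of the 20 (10%) were higher and 2 (10%) lower in control cells, against 1.9% and 0.726% of all genes. In knock-down cells 2 (10%) were higher and 3 (15%) lower, against 1.54% and 0.254%. PLAU rose by 2.94 (SE 0.39, adjusted p = 0.00277) and 3.39 (SE 0.41, adjusted p = 0.00167) and GGCX by 0.60 (SE 0.08, adjusted p = 0.00359) and 0.43 (SE 0.08, adjusted p = 0.0269). FGB changed by -1.15 (SE 0.22, adjusted p = 0.0193) and -2.29 (SE 0.22, adjusted p = 3.84e-04), and FGG by -1.59 (SE 0.23, adjusted p = 0.00449) and -1.61 (SE 0.23, adjusted p = 0.00484). FGA was called lower in knock-down cells, at -2.34 (SE 0.43, adjusted p = 0.0194). Its change in control cells, -1.75 (SE 0.42, adjusted p = 0.0571), passed with the block (adjusted p = 0.00352). From knock-down replicates 2 and 3 alone, 4 of these genes were higher and 4 lower in control cells, against 5.15% and 3.45% of all genes. In knock-down cells 3 were then higher and 3 lower, against 2.22% and 0.639%. Of 23 further complement genes 13 were tested. CPN1, the catalytic chain of carboxypeptidase N, was lower with TNFα in control cells, at -0.71 (SE 0.16, adjusted p = 0.0487). In knock-down cells its change was also -0.71 (SE 0.17, adjusted p = 0.0636, and 2.47e-04 with the block). CPN2, the regulatory chain of that enzyme, was higher in treated knock-down cells, at 1.19 (SE 0.23, adjusted p = 0.0116). Each was the 1 call of the 13 (7.69%) in its comparison, against 0.726% of all genes lower and 3.94% higher. In the untreated knock-down 0 of these 13 were called in edgeR, where 3.13% of all genes were higher and 1.86% lower. Of the 13, 1 had an unadjusted p under 0.05 and 0 were called by DESeq2. For TNFα in knock-down cells 0 were called, where 1.54% of all genes were higher and 0.254% lower. Here 3 had an unadjusted p under 0.05 and 1 was called by DESeq2.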
